A study of Mus musculus with 8 samples.

Results

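The skeletal muscle fibre genes of brown adipose tissue (BAT) are 50 genes of the contractile apparatus, calcium handling, energy supply and turnover of striated muscle, chosen by their symbols in the count table, where 50 of 50 were found among 56953 genes. Brown adipose tissue RNA was sequenced from 4 control libraries (CTR) and 4 libraries of tumour-bearing mice with cancer-associated cachexia (CAC). CTR mice were wild-type C57BL/6J animals of 8 to 10 weeks injected with PBS, and CAC mice were of the same strain, genotype and age and received 3000000 Lewis lung carcinoma (LLC) cells, a mouse lung tumour line, under the skin of the right flank, with a follow-up of 21 days. Both groups were housed at 21 °C with free access to food, and the animals were male or female without a statement of which library came from which sex. The labels do not say whether each library is a separate mouse, so p-values here measure the spread between libraries, which may in part be technical.

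A muscle fibre contracts when myosin heads pull on actin filaments within the sarcomere, and calcium released from the sarcoplasmic reticulum switches this on through troponin and tropomyosin. Fast fibres and slow fibres build the same machine from different gene copies, with Myh4, Myh1, Actn3 and Tnnt3 in fast fibres and Myh7, Myl2 and Tnnc1 in slow fibres, the latter 3 also in heart. Brown adipocytes arise from precursors shared with skeletal muscle, and the interscapular fat pad lies against the muscles of the back, so muscle transcripts in a dissected pad can come with fibres attached to it. Fast and slow genes were therefore set side by side in every library.

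Total counts per library ran from 1823167 to 4827956, and levels are given as CPM, the count scaled to the TMM-adjusted total of the genes kept in that library. In a library where a gene has 0 counts, its true count may be up to 3, which is 0.66 to 1.62 CPM here and covers counting error only. Brown adipocyte markers such as Ucp1 and Cidea were present in every library, and the sum over the 12 listed genes was 16665 to 19234 CPM, while 1 of them, Lep, had 0 counts in CAC replicate 2 and was too low to be tested. No library lay far from the others of its group for the 24 members chosen to be given in every library. Sln was not among these 24, and its CTR replicate 4 was at 0.22 CPM beside 6.12 to 6.22 CPM in the other CTR libraries. Of the 50 members, 44 passed the filter on low counts and were tested, and Myh8, Casq2, Jph2, Xirp1, Myod1 and Myog were not.

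Muscle fibre genes were on average more abundant in CAC than in CTR BAT, and the genes that passed the test belonged to the fast fibre and Z-disc apparatus. The 49 members other than Car3 summed to 2776, 4810, 6086 and 2489 CPM in CTR replicates 1 to 4 and to 4862, 7899, 9219 and 8281 CPM in CAC replicates 1 to 4. The means and SD over the 4 libraries of a group, as for all means below, were 4040 ± 1711 CPM for CTR and 7565 ± 1886 CPM for CAC, a ratio of 1.87, and 3 of the 4 CAC libraries lay above every CTR library. The exception was CAC replicate 1, below CTR replicate 3. As a share of each library these members took 0.234% to 0.597% of the counts in CTR and 0.453% to 0.927% in CAC. Bulk tissue does not show which cells held this RNA, and more cells and more RNA per cell cannot be told apart.

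Of the 44 tested members, 43 had a positive log2 fold change of CAC against CTR and 1, Sln, a negative one, and 42 were positive with library size or upper quartile scaling, where Car3 turned sign. Actn3, Mybpc2 and Myoz1 rose at an adjusted p under 0.05, 6.82% of the members tested, where 0.739% of the 9876 genes tested were called higher, and no member was called lower, where 0.192% of genes were. At an unadjusted p under 0.05, 18 members were higher (40.9%) and 0 lower, against 7.01% and 5.93% of all genes. These counts moved with single libraries, to 5 members called without CAC replicate 1 and 6 without CTR replicate 3. In each of these fits 1.02% of all genes were called higher. At an unadjusted p under 0.05 there were 9 members without CAC replicate 3, 10 without CAC replicate 4 and 11 without CTR replicate 4. There were 27 without CTR replicate 3 or CAC replicate 1. The share over all genes at that threshold was not worked out in these fits, so these moves cannot be set against it. The CAC libraries lay above all CTR libraries for 6 tested members, Actn3, Myh4, Mybpc2, Pvalb, Tnnc2 and Casq1 (13.6%), against 3.64% of all genes. The median log2 fold change was 0.81 over the tested members and -0.00 over all genes, of which 50% were positive. These counts describe the members that passed the filter and not the full 50, and most members share their high and low libraries, so they are not independent of each other.

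**Figure D1:**
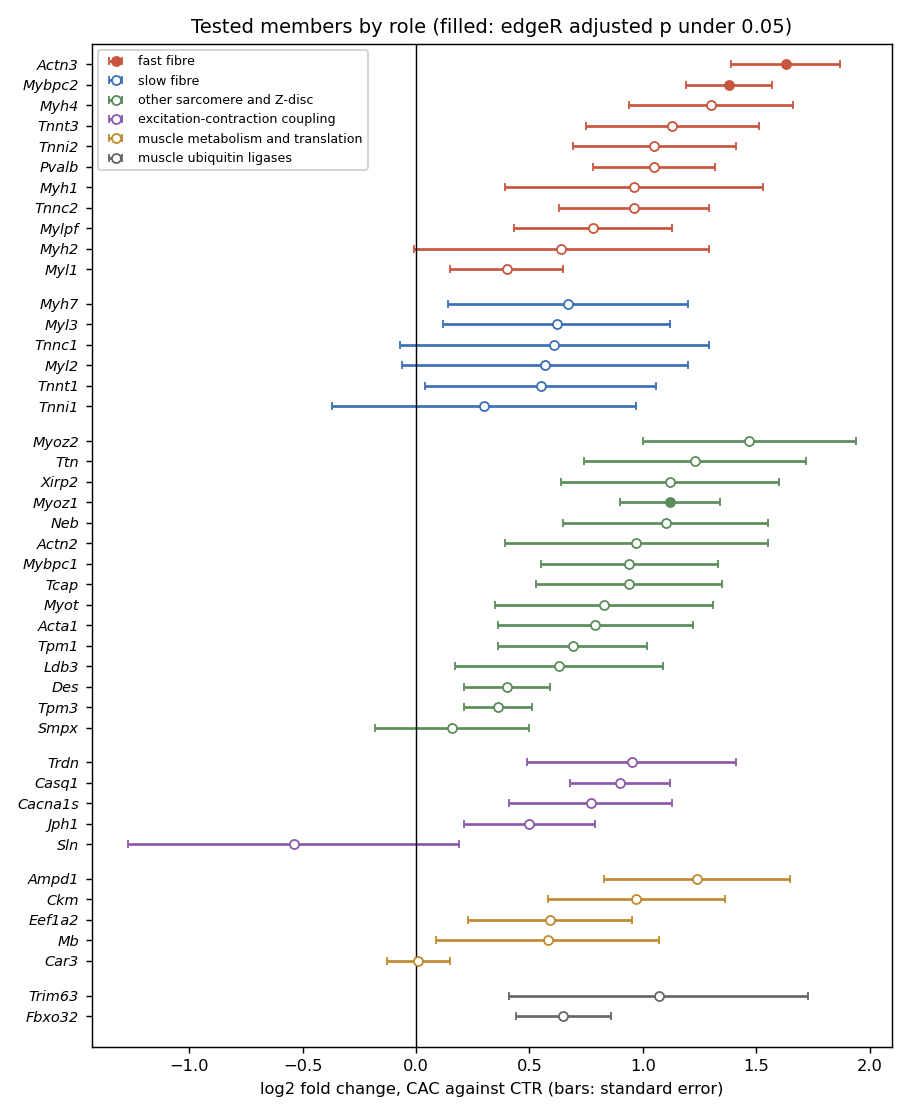
Log2 fold change of CAC against CTR with its standard error (horizontal axis) for the 44 tested members, grouped by role, with filled points at an adjusted p under 0.05. All points but Sln lie right of 0, Car3 at 0.01 with a sign that turns with the scaling, and the 3 filled points are Actn3 at 1.63, Mybpc2 at 1.38 and Myoz1 at 1.12.

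The fast fibre genes included the members with the smallest p. All 11 fast genes tested had positive log2 fold changes, from 0.40 to 1.63 with a median of 1.05. Actn3 and Mybpc2 were called (18.2%, where 0.739% of all genes tested were called higher). An unadjusted p under 0.05 was reached by 7 of the 11 (63.6%, against 7.01% of all genes). The groups did not overlap for 5 (45.5%, against 3.64%).

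Actn3, the fast-fibre alpha-actinin that anchors thin filaments at the Z-disc, stood at 15.1, 32.8, 34.0 and 25.6 CPM in CTR replicates 1 to 4 and at 76.2, 58.5, 95.8 and 99.4 CPM in CAC replicates 1 to 4. Each CAC library was above each CTR library, and the change was a log2 fold change of 1.63 (SE 0.24, adjusted p = 0.0148 by edgeR). The gene lies at chr19:4861216-4877909 on the minus strand of GRCm38, overlaps no other annotated gene and held fractions of reads in 2 of 8 libraries. Its call held when any library was left out, with adjusted p from 0.00018 to 0.0443.

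Mybpc2, the fast-type myosin-binding protein C of the thick filament, gave the smallest p of the members. Its levels were 9.36, 9.85, 13.3 and 9.04 CPM in CTR and 18.4, 27.1, 30.8 and 28.6 CPM in CAC, so that the CTR libraries were close together and every CAC library lay above them. The log2 fold change was 1.38 (SE 0.19, adjusted p = 0.000279 by edgeR), and it was called without any library in turn, with adjusted p from 0.000118 to 0.00497. Mybpc2 lies at chr7:44501699-44524656 on the minus strand, overlaps the non-coding Gm44646 on the other strand, and held fractions of reads in 8 of 8 libraries, so part of its reads were shared with other genes.

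Myh4, the heavy chain of the fastest (IIb) myosin, was at 167, 249, 280 and 143 CPM in CTR and at 302, 437, 752 and 563 CPM in CAC. The groups did not overlap, and yet the spread within CAC was wide, with CAC replicate 1 just above CTR replicate 3. Its log2 fold change of 1.30 (SE 0.36) did not pass by edgeR, with an adjusted p of 0.21, and passed by DESeq2, an alternative, with 0.0265. Myh1, the heavy chain of IIx fibres, was at 16.9, 24.2, 32.4 and 8.38 CPM in CTR and at 11.4, 60.1, 46.0 and 34.5 CPM in CAC. Here CAC replicate 1 fell among the CTR libraries, and the log2 fold change of 0.96 (SE 0.57) had an adjusted p of 0.556. Myh2, the IIa heavy chain, had the widest overlap of these myosins, with 15.4 to 90.9 CPM in CTR and 29.7 to 101 CPM in CAC and an adjusted p of 0.752. Myh2, Myh1, Myh4 and Myh8 stand in this order on the plus strand of chromosome 11, between 67171027 and 67308634, and are close copies, with fractions of reads in 7, 7, 6 and 8 libraries. The division of reads among them is therefore uncertain.

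Tnnt3, the fast troponin T that ties the troponin complex to tropomyosin, was at 131, 259, 347 and 149 CPM in CTR and at 303, 513, 544 and 573 CPM in CAC. Only CAC replicate 1 lay within the CTR range, and the log2 fold change was 1.13 (SE 0.38, adjusted p = 0.291). Tnni2, the fast inhibitory troponin, was at 231, 446, 606 and 278 CPM in CTR and at 574, 712, 943 and 988 CPM in CAC, again with CAC replicate 1 just under CTR replicate 3 (log2 fold change 1.05, adjusted p = 0.301). Tnnc2, the calcium-binding fast troponin C, was at 208, 381, 507 and 233 CPM in CTR and at 509, 559, 776 and 738 CPM in CAC. Its groups were separated only narrowly, between CTR replicate 3 and CAC replicate 1, and its log2 fold change of 0.96 had an adjusted p of 0.296. Pvalb, the parvalbumin that buffers calcium in fast fibres, was at 150, 255, 305 and 164 CPM in CTR and at 372, 377, 565 and 491 CPM in CAC. The groups did not overlap, and the log2 fold change was 1.05 (SE 0.27, adjusted p = 0.165 by edgeR and 0.0287 by DESeq2). The fast myosin light chains differed less, Mylpf by 0.78 and Myl1 by 0.40 on the log2 scale, with adjusted p of 0.427 and 0.562.

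**Figure D2:**
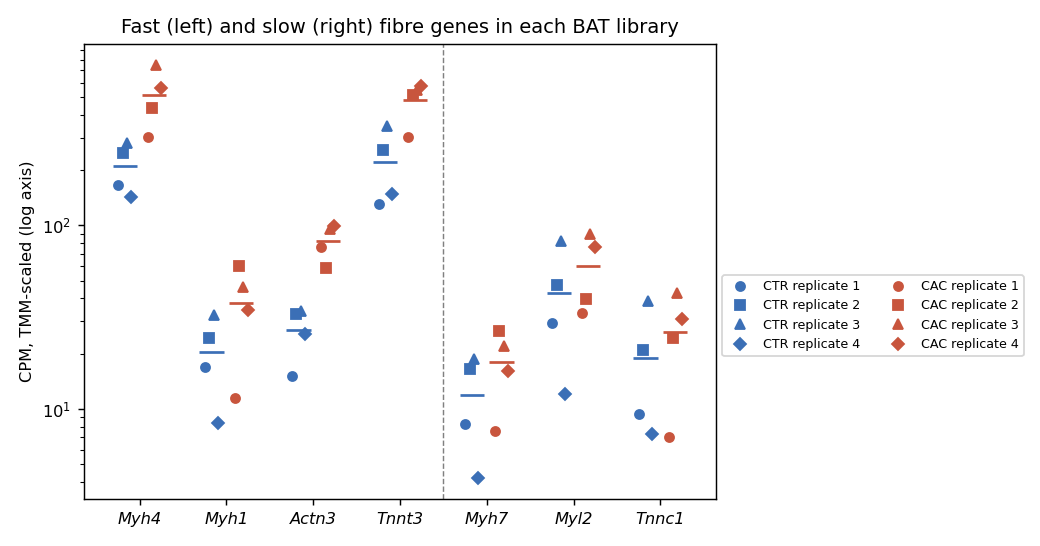
TMM-scaled CPM (log axis) in each library for the 4 fast genes (left of the dashed line) and the 3 slow genes (right), with CTR in blue, CAC in red, 1 marker shape per replicate number and bars at the group means. Actn3 and Myh4 show no overlap of the groups, whereas Myh7, Myl2 and Tnnc1 overlap over most of their range.

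Slow fibre genes overlapped between the groups. All 6 slow genes tested had positive log2 fold changes, from 0.30 to 0.67 with a median of 0.59. In the edgeR test 0 of the 6 had an unadjusted p under 0.05, where 7.01% of all genes were higher at that threshold. Whether slow genes changed less than fast genes was not tested here.

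Myh7, the slow (type I) myosin heavy chain, was at 8.28, 16.5, 18.7 and 4.19 CPM in CTR and at 7.57, 26.6, 22.0 and 16.0 CPM in CAC. CAC replicate 1 was below 3 of the 4 CTR libraries, and the log2 fold change was 0.67 (SE 0.53, adjusted p = 0.671). The gene lies at chr14:54970684-54994626 on the minus strand and overlaps 5 annotated genes, Mhrt among them, and since the strand setting of the counting is not given in the sources used here, reads of overlapping genes cannot be told apart. Myl2, the slow regulatory light chain, was at 29.5, 47.4, 82.6 and 12.1 CPM in CTR and at 33.5, 39.9, 89.7 and 76.0 CPM in CAC (log2 fold change 0.57, SE 0.63, adjusted p = 0.777). Its CAC replicates 1, 2 and 4 lay inside the CTR range. Tnnc1, the slow and cardiac troponin C, was at 9.36, 21.0, 38.6 and 7.28 CPM in CTR and at 7.03, 24.5, 42.8 and 31.0 CPM in CAC (log2 fold change 0.61, SE 0.68, adjusted p = 0.782). The lowest of all 8 libraries for Tnnc1 was a CAC library. Of the other slow genes, Myl3 rested on means of 82.7 ± 54.7 and 125 ± 27.2 CPM, Tnnt1 on 63.0 ± 34.8 and 89.9 ± 34.5 CPM, and Tnni1 on 5.97 ± 4.14 and 6.56 ± 4.52 CPM in CTR and CAC. Their standard errors of 0.50 to 0.67 on the log2 scale leave room for changes as large as those of the fast genes.

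Fast and slow genes were next compared within libraries. Myh4, Myh1, Actn3 and Tnnt3 together were at 330, 565, 694 and 326 CPM in CTR and at 693, 1068, 1438 and 1270 CPM in CAC. The means were 479 ± 182 and 1117 ± 321 CPM, a ratio of 2.33 or a log2 ratio of 1.22. Myh7, Myl2 and Tnnc1 together were at 47.1, 85.0, 140 and 23.6 CPM in CTR and at 48.1, 90.9, 154 and 123 CPM in CAC. Their means were 73.9 ± 50.7 and 104 ± 45.5 CPM, a ratio of 1.41 or a log2 ratio of 0.50, smaller than the spread within either group. This slow log2 ratio rested on single libraries, with 0.21 without CTR replicate 4 and 1.00 without CTR replicate 3. The fast one ran from 1.08 to 1.46 with a library left out. In both sums CAC replicate 3 was the highest library and CTR replicate 4 the lowest. Libraries of like slow sums differed in their fast sums. CTR replicate 1 and CAC replicate 1 had slow sums of 47.1 and 48.1 CPM and fast sums of 330 and 693 CPM, CTR replicate 2 and CAC replicate 2 had slow sums of 85.0 and 90.9 CPM and fast sums of 565 and 1068 CPM, and CTR replicate 3 and CAC replicate 3 had slow sums of 140 and 154 CPM and fast sums of 694 and 1438 CPM. The replicate numbers do not pair these libraries, which are set together here only for their slow sums.

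**Figure D3:**
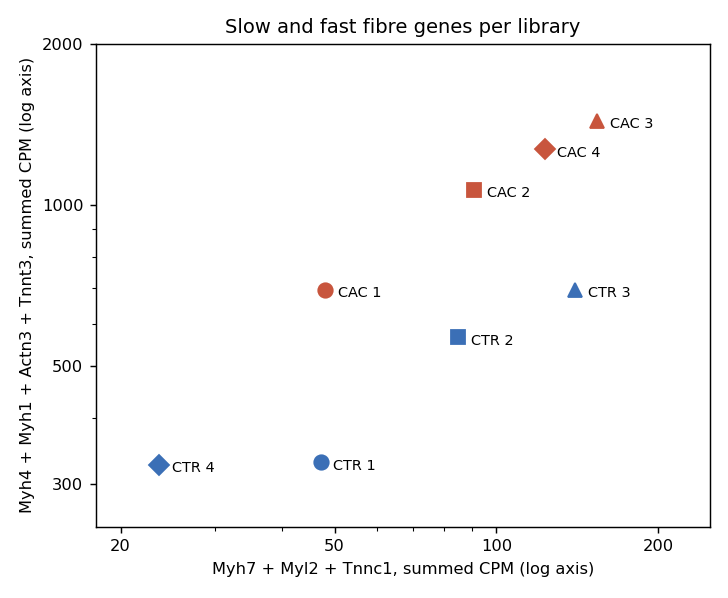
Summed CPM of the 4 fast genes (vertical, log axis) against the summed CPM of the 3 slow genes (horizontal, log axis), 1 point per library with CTR in blue and CAC in red. Within each group, libraries with more slow gene RNA held more fast gene RNA, and the CAC points stand above CTR points of like slow sum, as at 47.1 and 48.1 CPM.

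The log2 ratio of fast to slow counts was 2.80, 2.73, 2.31 and 3.78 in CTR and 3.84, 3.55, 3.22 and 3.37 in CAC. The mean was 2.91 ± 0.62 in CTR and 3.49 ± 0.27 in CAC, a difference of 0.59 that is smaller than the spread in CTR, and the groups overlapped because CTR replicate 4 had a ratio as high as the CAC libraries. That library was also the most deeply sequenced and had the fewest slow counts relative to its depth. Over the broader sets of 11 fast and 6 slow genes the difference was 0.31, with CTR replicate 4 the highest of all 8 libraries. No test was made on this ratio.

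The same comparison was made for 9 pairs of a fast and a slow gene of related proteins, chosen after the values were seen. The mean log2 ratio was higher in CAC for 7 of the 9 pairs, and the groups did not overlap for 1 of them. That pair was Casq1 to Casq2, the calcium-storing calsequestrins of fast and of slow and cardiac muscle, with 2.02 ± 0.18 in CTR and 2.89 ± 0.30 in CAC, though Casq2 had only 3 to 16.5 counts per library. Actn3 was also set against Actn2, which all striated fibres use and which is not counted among these pairs, and that ratio differed by 0.95, but its CAC values ran from 0.20 in replicate 2 to 3.62 in replicate 1, on both sides of the CTR range of 0.71 to 1.15. Tnni2 to Tnni1 differed by 0.91, Myh4 to Myh7 by 0.59, Tnnt3 to Tnnt1 by 0.57 and Tnnc2 to Tnnc1 by 0.51, all with overlap. Myl1 to Myl3 and Myoz1 to Myoz2 went the other way, by -0.38 and -0.50. The fast to slow ratio was thus not higher in CAC across all fibre genes.

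**Figure D4:**
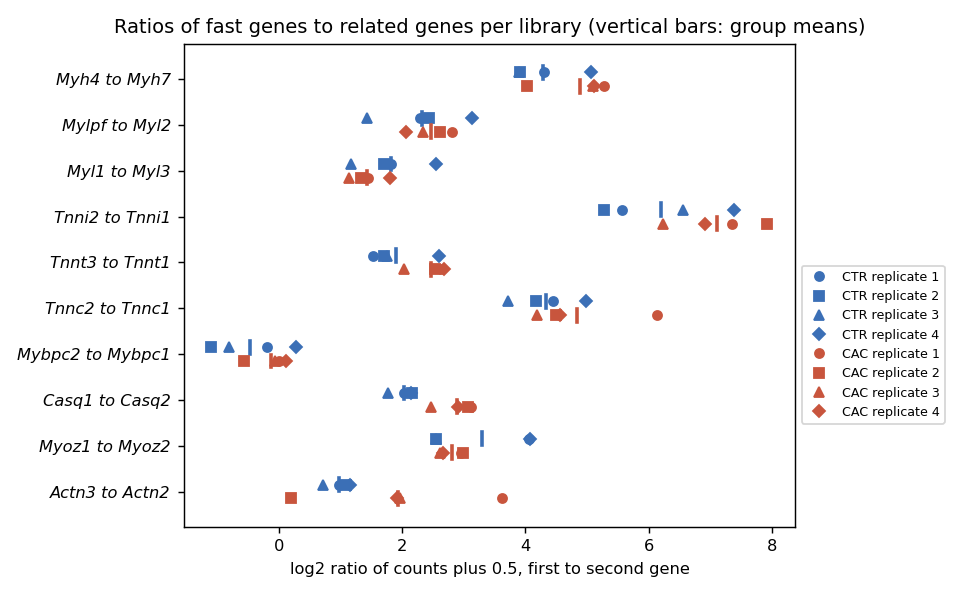
Log2 ratio of counts, with 0.5 added, in each library (horizontal axis) for 9 pairs of a fast and a slow gene and for Actn3 to Actn2, with CTR in blue, CAC in red and vertical bars at the group means. The groups are apart for Casq1 to Casq2 and overlap for the other ratios.

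When the log2 sum of Myh7, Myl2 and Tnnc1 was added to the edgeR fit as a covariate, an alternative chosen after seeing the data, 10 members were called, all higher in CAC, where 0.749% of all genes tested were called higher, and the median log2 fold change of the members fell to 0.46. The 10 were Actn3, Mybpc2, Myh4, Tnnt3, Tnni2, Tnnc2, Pvalb, Myoz1, Acta1 and Ckm. Myh4 had a log2 fold change of 0.93 (adjusted p = 0.00035), Actn3 one of 1.46 (adjusted p = 0.00376) and Tnnt3 one of 0.83 (adjusted p = 0.00565). Myh1, the other fast gene of the rule, did not pass in this fit (log2 fold change 0.44, adjusted p = 0.634). The covariate is made from members that vary with the others, so this fit describes the fast genes at a given slow gene level and says nothing of the 3 slow genes themselves.

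The promoters of Myh4 and Mybpc2, as fast genes with non-overlapping groups, and of Myh7 and Tnnc1, as slow genes, are shown because fast and slow copies are switched on by shared muscle regulators, MyoD family factors that bind the E-box CANNTG and MEF2 factors. The sequences are RefSeq windows of GRCm38.p6 from 250 bases before to 50 bases after the start, 5′ to 3′ on the strand of the gene, with E-boxes in capitals. They stand at chr11:67237562-67237861 (plus strand) for Myh4, chr7:44524620-44524919 (minus strand) for Mybpc2, chr14:54994577-54994876 (minus strand) for Myh7 and chr14:31208062-31208361 (plus strand) for Tnnc1.
Myh4: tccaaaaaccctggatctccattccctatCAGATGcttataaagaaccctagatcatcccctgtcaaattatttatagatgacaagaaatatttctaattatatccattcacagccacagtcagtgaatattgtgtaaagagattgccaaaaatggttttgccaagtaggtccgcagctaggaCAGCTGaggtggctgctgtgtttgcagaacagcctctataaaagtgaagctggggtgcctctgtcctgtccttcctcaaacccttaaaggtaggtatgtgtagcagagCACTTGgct
Mybpc2: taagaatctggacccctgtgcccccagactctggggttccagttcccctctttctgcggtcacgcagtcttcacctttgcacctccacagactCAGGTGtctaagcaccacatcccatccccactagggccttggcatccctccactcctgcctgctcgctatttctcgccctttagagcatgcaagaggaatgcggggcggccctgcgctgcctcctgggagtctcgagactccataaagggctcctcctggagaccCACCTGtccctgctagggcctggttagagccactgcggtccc
Myh7: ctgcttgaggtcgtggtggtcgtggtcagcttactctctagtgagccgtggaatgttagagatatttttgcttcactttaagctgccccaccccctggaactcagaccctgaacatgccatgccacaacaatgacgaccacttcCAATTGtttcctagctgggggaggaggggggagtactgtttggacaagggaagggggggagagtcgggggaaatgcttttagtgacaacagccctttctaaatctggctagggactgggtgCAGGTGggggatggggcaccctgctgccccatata
Tnnc1: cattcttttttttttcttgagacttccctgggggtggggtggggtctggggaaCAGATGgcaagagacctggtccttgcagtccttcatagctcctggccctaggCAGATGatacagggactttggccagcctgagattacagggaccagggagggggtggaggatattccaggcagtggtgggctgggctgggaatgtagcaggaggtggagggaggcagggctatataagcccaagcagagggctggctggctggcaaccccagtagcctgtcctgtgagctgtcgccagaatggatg

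Myh4 held 3 E-boxes, 1 of them the CAGCTG form, and 1 MEF2 match, whereas Mybpc2, Myh7 and Tnnc1 held 2 E-boxes each and neither CAGCTG nor a MEF2 match in these windows. Promoter windows were found for 35 of the 50 members, 44 windows in all. CAGCTG was found in 47.7% of the member windows and in 16.3% of all 32851 windows, a MEF2 match in 18.2% and 3.19%, and any CANNTG, which includes CAGCTG, in 86.4% and 72.3%. All motifs were searched on both strands, and these matches describe the letters of the windows only.

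The other sarcomere and Z-disc genes were a mixed list of 17, with genes that all fibres use beside the fast-type Myoz1 and the slow-type Myoz2 and Mybpc1. All 15 tested had positive log2 fold changes with a median of 0.94. The fast-type Myoz1 was the 1 called (6.67%, where 0.739% of all genes tested were called higher). An unadjusted p under 0.05 was reached by 6 (40%, against 7.01% of all genes). The groups overlapped for all 15, where 3.64% of all genes had every CAC library above every CTR library. Myoz1, a calsarcin that binds calcineurin at the Z-disc of fast fibres, was at 26.6, 31.7, 44.8 and 24.0 CPM in CTR and at 43.8, 64.9, 80.0 and 80.2 CPM in CAC. CAC replicate 1 lay just under CTR replicate 3, and the log2 fold change was 1.12 (SE 0.22, adjusted p = 0.046). This call was narrow, since it was lost without CTR replicate 1 or 2 or CAC replicate 2, 3 or 4, with adjusted p up to 0.147. Myoz2, the calsarcin of slow and cardiac muscle, was at 1.44, 5.33, 7.47 and 1.32 CPM in CTR and at 5.41, 7.98, 12.9 and 12.5 CPM in CAC (log2 fold change 1.47, SE 0.47, adjusted p = 0.21). It had a positive log2 fold change within the range of the fast genes, on 4 to 44 counts per library.

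Acta1, skeletal alpha-actin of the thin filament, was at 398, 690, 884 and 263 CPM in CTR and at 613, 1044, 1161 and 1030 CPM in CAC (log2 fold change 0.79, adjusted p = 0.517). Ttn, the giant spring protein titin, was at 197, 368, 409 and 149 CPM in CTR and at 297, 995, 762 and 574 CPM in CAC (log2 fold change 1.23, adjusted p = 0.368). Neb, the thin-filament ruler nebulin, was at 103, 199, 231 and 97.5 CPM in CTR and at 147, 392, 439 and 366 CPM in CAC (log2 fold change 1.10, adjusted p = 0.384). In each of these 3 genes CAC replicates 2, 3 and 4 were above every CTR library and CAC replicate 1 was within the CTR range. Mybpc1, the slow-type myosin-binding protein C, was at 10.8, 21.3, 23.7 and 7.50 CPM in CTR and at 18.4, 40.4, 32.2 and 26.5 CPM in CAC, with the same exception (log2 fold change 0.94, adjusted p = 0.367). Tpm3, a tropomyosin that many cell types use, was at 60.5, 71.1, 83.8 and 54.7 CPM in CTR and at 73.5, 71.3, 107 and 89.6 CPM in CAC (log2 fold change 0.36, SE 0.15, adjusted p = 0.296). Its CAC replicates 1 and 2 lay among the CTR libraries. Tpm3, Tpm1 and Des, which are also expressed outside skeletal muscle, had log2 fold changes of 0.36 to 0.69. Without these 3 and Car3 the median of the tested members was 0.92 in place of 0.81. The smallest change of the group was that of Smpx, a small striated muscle protein, at 0.16, with CAC replicate 1 the lowest of all libraries at 5.41 CPM.

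The remaining sarcomere genes had wide spreads. Xirp2, an actin-binding protein of muscle cell junctions, had means of 29.0 ± 12.7 and 60.6 ± 26.5 CPM in CTR and CAC (log2 fold change 1.12, adjusted p = 0.402), and Tcap, the titin cap of the Z-disc, of 142 ± 71.5 and 270 ± 79.9 CPM (0.94, adjusted p = 0.413). Actn2, the alpha-actinin of all striated fibres, was at 5.95 CPM in CAC replicate 1 and 51.1 CPM in CAC replicate 2, the lowest and the highest of the 8 libraries (log2 fold change 0.97, adjusted p = 0.554). Myot and Ldb3, which bind alpha-actinin at the Z-disc, had log2 fold changes of 0.83 and 0.63 with adjusted p of 0.522 and 0.639. Xirp1 had 0 to 5 counts and Myh8, the perinatal myosin heavy chain, 0.25 to 10.33 counts per library, too few for a comparison. Across all roles, 32 of the 50 members held fractions of reads in at least 1 library and 26 overlap another annotated gene.

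Genes of excitation-contraction coupling, which link the nerve signal to calcium release, were positive for 4 of 5 tested, with a median log2 fold change of 0.77. At an unadjusted p under 0.05, 2 were higher (40%, against 7.01% of all genes). None of the 5 passed the adjusted edgeR test, where 0.739% of all genes were called higher. Casq1, the calcium-storing protein of the fast-fibre sarcoplasmic reticulum, was at 7.92, 14.6, 14.5 and 8.16 CPM in CTR and at 16.2, 19.7, 26.4 and 19.5 CPM in CAC. The groups did not overlap, and the log2 fold change of 0.90 (SE 0.22) had an adjusted p of 0.0559 by edgeR, 0.087 by DESeq2 and 0.00178 without the filter on low counts. Cacna1s, the voltage sensor of the T-tubule, was at 1.80, 4.79, 9.13 and 3.97 CPM in CTR and at 3.78, 10.6, 9.08 and 8.37 CPM in CAC, with overlap (log2 fold change 0.77, adjusted p = 0.379). Trdn, the triadin that anchors calsequestrin, had a log2 fold change of 0.95 and Jph1, a junctophilin that holds T-tubule and reticulum together, one of 0.50, with adjusted p of 0.472 and 0.495. Sln, sarcolipin, an inhibitor of the calcium pump SERCA, was at 6.12, 6.13, 6.22 and 0.22 CPM in CTR and at 4.87, 4.25, 2.05 and 1.74 CPM in CAC. It did not share the order of the other members, and its log2 fold change of -0.54 (SE 0.73) had an adjusted p of 0.824. Jph2, which was too low to be tested, had 1, 5, 2 and 3 counts in CTR and 4, 6, 7 and 7 counts in CAC.

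The metabolic genes were not alike. Car3, carbonic anhydrase III, which adipocytes as well as slow fibres make, was at 6942, 6504, 8881 and 9227 CPM in CTR and at 8238, 6102, 7764 and 9573 CPM in CAC. Its means of 7888 ± 1365 and 7919 ± 1433 CPM gave a log2 fold change of 0.01 (SE 0.14, adjusted p = 0.993), and its highest CTR library was replicate 4, which was the lowest for most members. Car3 therefore did not share the library order of the fibre genes. Ckm, the creatine kinase of muscle, was at 64.1, 105, 149 and 52.3 CPM in CTR and at 111, 187, 213 and 204 CPM in CAC (log2 fold change 0.97, adjusted p = 0.374). Ampd1, the AMP deaminase of muscle, was at 1.80, 4.26, 5.81 and 5.95 CPM in CTR and at 3.24, 7.98, 15.5 and 13.6 CPM in CAC (log2 fold change 1.24, adjusted p = 0.21). For both genes CAC replicate 1 was within the CTR range and the other 3 CAC libraries were above it. Mb, the oxygen-binding myoglobin, and Eef1a2, a translation elongation factor of muscle and neurons, had log2 fold changes of 0.58 and 0.59 with adjusted p of 0.698 and 0.533.

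The muscle ubiquitin ligases, which tag contractile proteins for breakdown in wasting muscle, did not pass. Fbxo32 (atrogin-1) was at 11.5, 10.7, 11.2 and 9.70 CPM in CTR and at 15.1, 23.9, 11.4 and 18.1 CPM in CAC. The CTR libraries were close together, CAC replicate 3 was among them and the other CAC libraries were above, with a log2 fold change of 0.65 (SE 0.21, adjusted p = 0.168). This differs from the fibre genes, for which CAC replicate 3 was mostly the highest library. Trim63 (MuRF1) had a log2 fold change of 1.07 (SE 0.66, adjusted p = 0.554) on 1 to 38 counts per library. The myogenic factors Myod1 and Myog, which switch on the fibre programme in myoblasts, were at 0 or 1 and at 0 to 3 counts in each library and could not be compared at this depth.

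Many members had the same libraries at the top and the bottom, though their full orders differed. Over the 43 tested members other than Car3, CAC replicate 3 was the highest library for 22 and CAC replicate 2 for 11, and CTR replicate 4 was the lowest for 26 and CTR replicate 1 for 13. CAC replicate 1 was the highest for 0 and the lowest for 4. The sum of the members without Car3 differed 3.70-fold between the highest and the lowest library and overlapped between the groups. The sum of the 12 brown adipocyte genes differed 1.15-fold over the same libraries, with means of 17791 ± 967 CPM in CTR and 17762 ± 1194 CPM in CAC.

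Muscle genes that are not among the members were mostly positive too. Of 30 further skeletal muscle genes 25 were tested, and 24 had positive log2 fold changes with a median of 0.88. Srl, the sarcalumenin of the sarcoplasmic reticulum (1.01, adjusted p = 0.0114), and Cmya5, a myospryn of the Z-disc (1.28, adjusted p = 0.0378), were called (8%, where 0.739% of all genes were called higher). At an unadjusted p under 0.05, 12 were higher (48%, against 7.01% of all genes). The groups did not overlap for 1, Srl (4%, against 3.64%). The sum of the 30 genes was 387 to 942 CPM in CTR and 632 to 1319 CPM in CAC. Of the 8 heart muscle genes 0 passed the filter, their sum was 0.541 to 4.25 CPM in any library, and Nppb and Myl7 had 0 counts. Among the muscle stem cell and myoblast genes, Mymk had 0 counts and Pax7 0 or 1 count in each library. Smooth muscle genes, which mark vessels, were positive for 7 of 7 tested with a median of 0.66. Acta2, the most abundant of them, and Smtn were near 0, at 0.05 and 0.01. An unadjusted p under 0.05 was reached by 3 of the 7 (42.9%, against 7.01% of all genes), and the smallest adjusted p by edgeR was 0.12 for Synpo2. The groups did not overlap for Tagln, Cnn1 and Synpo2 (42.9%, against 3.64% of all genes). Sums of the smooth muscle genes were 46.4 to 63.5 CPM in CTR and 54.1 to 80.0 CPM in CAC. Of the brown adipocyte genes 11 were tested with a median of 0.03. At an unadjusted p under 0.05, 3 of the 11 had negative log2 fold changes, where 5.93% of all genes did. These were Plin1, a coat protein of lipid droplets (-0.27, adjusted p = 0.192), and Cox8b and Cox7a1, subunits of cytochrome c oxidase (-0.22 each, adjusted p = 0.286 and 0.292). For these 3 every CAC library lay below every CTR library, as for 3.4% of all genes tested. Ppargc1a, a coactivator of mitochondrial genes that muscle also uses, was called higher (log2 fold change 0.73, adjusted p = 0.0201). It was the 1 brown adipocyte gene called (9.09%, against 0.739% of all genes called higher). The part of muscle carried over with the pad in these differences was not tested.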

How the data were processed

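BAT RNA was sequenced single-end in 8 libraries, and groups were read from the sample labels. Per the labels and methods, the authors checked reads with FastQC 0.11.9, aligned them to mm10 with HISAT2 2.2.1 and counted them with featureCounts. The deposited table holds expected counts per gene, without normalization and with fractions of reads (25.1% to 28.4% of nonzero values were not whole). The other deposited table holds a normalized signal, made by the authors in DESeq2. Of its values, 100.0% equal the count without decimals divided by 1 size factor per library, and it served an alternative only.

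Expected counts were rounded, kept by filterByExpr, scaled by TMM and tested with the robust quasi-likelihood test of edgeR 4.0.16 in R 4.3.3, CAC against CTR without covariate, with Benjamini-Hochberg adjustment over the 9876 genes tested. CPM are TMM-scaled. SD are over 4 libraries. The adjusted p threshold was 0.05. Log2 ratios used counts plus 0.5. Sums, ratios and medians over lists were not tested. Replicates of a group differed by more than sampling noise. Tested on simulated counts of 9622 genes, the test called 72 of 100 genes with a true log2 fold change of 1, 94 of 95 with 2 and 11 of 9427 without change. The changed genes were drawn at random and each gene was simulated on its own. These rates are therefore not the recovery for the members, most of which share their high and low libraries. Coordinates are from GENCODE M21 (GRCm38), matched by ID without version for 91.4% of IDs. Precision follows from 1823167 to 4827956 counts per library.

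The members and lists were chosen with earlier results of these data known. Values in every library are given for the 4 fast and 3 slow genes of the rule, for the 5 other members with the highest mean CPM and for the 12 further members with the smallest p. Sln, Jph2 and the remaining members named were chosen for their role or after their values were seen. Of other lists, called genes were named, with some at the floor. Alternatives were other scalings, filters, tools, a replicate block and leaving out each library.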

Additional observations from a re-analysis of the deposited data

Results flagged for a closer look

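None of the 54 groups of 4 libraries examined held a library that lay far from the others by the 95% limit for 4 samples, where chance would give about 2.7, or 1 in 20. Sln, with 1 low CTR library, was not among the genes examined.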

How the results depend on the processing

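The direction of the median of the members, of the fast and slow sums and of the fast to slow ratio held under every alternative run. The 3 calls became 5 with DESeq2 1.42.0, which added Myh4 and Pvalb, 7 without the filter on low counts (50 genes tested), 10 with the slow gene covariate, all higher in CAC, and 13 with a replicate block, where 32 members had an unadjusted p under 0.05 in place of 18, and the cause was not tested. Over all genes, 92 (0.932%) were called in the main test, 101 (1.02% of 9921 with an adjusted p) by DESeq2, 351 (1.48%) without the filter, 95 (0.962%) with the covariate, 140 (1.42%) with the block and 42 to 135 with a library left out. Shares over all genes at an unadjusted p under 0.05 were not worked out for the alternatives. Moves of the member counts at that threshold therefore cannot be set against moves over all genes. Same-numbered libraries did not deviate together (correlations of -0.022 to 0.036, and 2 of 4 CTR libraries correlated best with their own number), so the numbers are not taken as pairs. Leaving out each library in turn gave 2 to 6 calls, with 6 without CTR replicate 3 and 5 without CAC replicate 1, and 9 to 27 members with an unadjusted p under 0.05, namely 9 without CAC replicate 3, 10 without CAC replicate 4, 11 without CTR replicate 4 and 27 without CTR replicate 3 or CAC replicate 1. It gave medians of 0.67 to 1.13, a log2 ratio of the fast sums of 1.08 to 1.46, one of the slow sums of 0.21 (without CTR replicate 4) to 1.00 (without CTR replicate 3), and a fast to slow difference of 0.39 to 0.88. Actn3 and Mybpc2 were called in all settings run. Casq1 and Ampd1 were called without the filter (adjusted p = 0.00178 and 0.00162), with the block (0.0245 and 0.0283) and without CAC replicate 1, and Ckm with the covariate (0.00846). Casq1 was also called by edgeR without CTR replicate 2 (adjusted p = 0.0431) and without CTR replicate 3 (0.032). Myoz1 was lost with a minimum of 10 counts in every library (adjusted p = 0.0511), with library size alone (0.0836) and with upper quartile scaling (0.0555). Car3, near 0, turned to -0.0039 with library size alone and to -0.02 without the filter and with upper quartile scaling, and ran from -0.09 to 0.11 with a library left out, -0.01 without CAC replicate 1, -0.09 without CAC replicate 4, -0.05 without CTR replicate 1 and -0.08 without CTR replicate 2. Tnnc1 turned to -0.11 with the slow gene covariate, which contains it. For the 24 genes given in every library, 408 of the recomputed values kept direction and side of the threshold, 29 passed it only in the alternative, 8 lost it and 8 changed sign. Counts of 1 to 44 per library limit Myoz2, Sln, Trim63, Casq2 and Jph2.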
